A study of Rattus norvegicus with 4 samples.

Results

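The genes described here encode the proteasome and the molecular chaperones. They were taken by a rule on gene symbols (Psma to Psmg followed by a digit, Cct2 to Cct8, Tcp1, Hspa, Hspb, Hspd, Hspe and Hsph, Dnaja to Dnajc followed by a digit, and Bag1 to Bag6). The rule found 173 probe sets with a single gene symbol, for 122 genes, among 31042 probe sets and 14217 genes on the array. Of these genes 44 belong to the proteasome and 75 to the chaperones. The other 3 matched by spelling and are no subunits or chaperones of these families: Psmc3ip, a meiotic recombination factor (difference -0.17, SE 0.18), Psme3ip1 (0.03, SE 0.07) and Hspbap1 (-0.17, SE 0.09). A further 9 probe sets with several symbols were left out. Hsp90 genes are not spelled in a way that the rule takes, and they are given with the related lists.

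RNA came from the telencephalon, the front of the embryonic forebrain, of Sprague-Dawley rat embryos at E11.5. Arrays 1 and 2 of the Pax6 mutant were made from homozygous rSey2/rSey2 embryos and arrays 1 and 2 of WT from wild-type embryos, with 1 biotin-labelled one-colour Affymetrix array per sample. RNA was drawn from 13 telencephalons and the experiment was done again for either genotype, per the design text. Separate litters are not named there, and the p-values measure the spread between arrays, part of which may be technical. In bulk tissue, fewer cells of a type and less RNA per cell cannot be told apart.

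Values are GCRMA values on the log2 scale, 1 per probe set and array. Differences are Pax6 mutant minus WT on that scale, so that 1 stands for a 2-fold higher level. Pax6 itself read 11.78 and 11.63 in the Pax6 mutant arrays and 11.75 and 11.85 in the WT arrays, a difference of -0.09 (SE 0.10, limma adjusted p = 1), and does not check the genotype labels. Of the markers fixed for the telencephalic neuroepithelium, 9 of 9 on the array were above the dim level, among them Lhx2, Sox2 and Emx2.

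The proteasome is a barrel of 4 stacked rings that degrades proteins tagged with ubiquitin. Its 20S core holds the proteolytic sites, and its 19S caps bind, unfold and feed in the substrate. Chaperones bind proteins that are not yet folded or have lost their fold: Hsp70 proteins work with J-domain partners and nucleotide exchange factors, and ring-shaped chaperonins fold proteins inside a cavity. In the embryonic forebrain these systems serve cells that divide fast and make much protein.

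Probe sets with a mean over the 4 arrays under the 40th percentile (3.21) were called dim and not tested. Above that level lay 42 of 44 proteasome genes and 66 of 75 chaperone genes, each taken at its brightest probe set. The share of tested probe sets that passed an adjusted p of 0.05 in limma was 0% (0 of 18625), and 0 members passed. At an unadjusted p under 0.05 there were 680 probe sets (3.65%). By that looser threshold, 0 proteasome genes were found in either direction. Among chaperones 1 gene was found, lower in the Pax6 mutant, and 0 higher. Over all 9840 tested genes these shares were 1.81% lower and 1.78% higher.

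The tested proteasome genes differed little between the genotypes. All 42 had a difference smaller than 0.25 in size at their brightest probe set, against 86.1% of all tested genes and 95.8% of the 3278 tested genes with a mean of at least 10. The 95% interval of the difference lay within 1 of zero for all 42, so a 2-fold change was outside each interval, against 88% of all tested genes and 96.6% of those bright ones. Within 0.5 of zero it lay for 34 of 42 (81%), against 48.9% of all tested genes and 66.8% of the bright ones. Proteasome probe sets are bright, with a median level of 12.32 against 8.995 over all tested genes, and bright probe sets vary less. The chaperone genes spread further: 57 of 66 differences were smaller than 0.25 in size (86.4%), and 56 intervals lay within 1 of zero (84.8%).

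**Figure D1:**
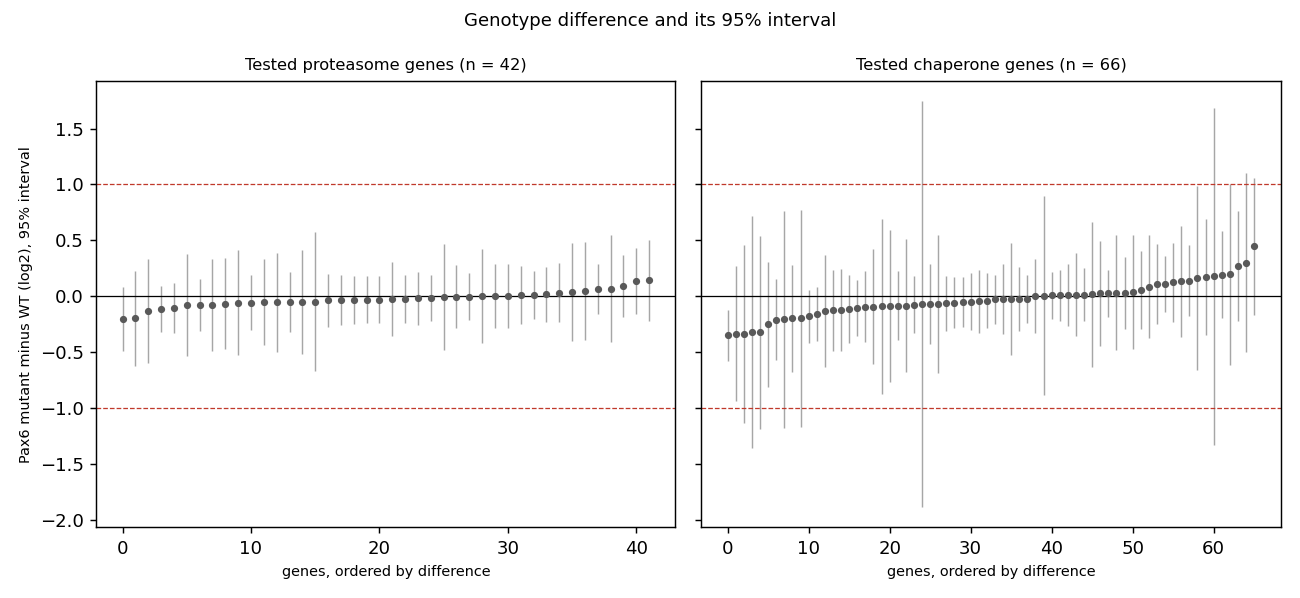
Each point is 1 tested gene, ordered by its difference (Pax6 mutant minus WT, log2), with its 95% interval from limma as a vertical line; dashed red lines mark differences of 1 and -1. All 42 proteasome intervals lie between the dashed lines, and 10 of 66 chaperone intervals cross one.

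The alpha subunits form the outer rings of the 20S core and gate the entry of substrate. Psma4 read 11.70 and 11.78 in the Pax6 mutant and 11.87 and 12.01 in WT. That difference of -0.20 (SE 0.09, limma adjusted p = 1, 95% interval -0.49 to 0.08) was the lowest among proteasome genes, with no overlap between the genotypes. Psma5 read 13.58 and 13.60 in the Pax6 mutant and 13.70 and 13.70 in WT, a difference of -0.11 (SE 0.07), again with no overlap. Psma7 read 13.62 and 13.67 in the Pax6 mutant and 13.68 and 13.76 in WT, a difference of -0.08 (SE 0.08). Psma1 read 13.07 and 12.75 in the Pax6 mutant and 13.12 and 12.97 in WT (-0.14, SE 0.15). There 1 Pax6 mutant array lay between the WT values. Of the remaining members, Psma3 and Psma6 lay below zero (-0.06 and -0.03) and Psma2 above it (0.01).

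The beta subunits form the inner rings, where Psmb5 and Psmb7 carry proteolytic sites. Psmb6 was not among the constitutive beta genes that the rule found, and is missing from the counts given here. Psmb5 read 13.83 and 13.86 in the Pax6 mutant and 13.86 and 13.89 in WT, a difference of -0.03 (SE 0.07). Psmb7 read 13.48 and 13.49 in the Pax6 mutant and 13.49 and 13.53 in WT, also -0.03 (SE 0.07), with no overlap by a margin smaller than 0.01. These are among the steadiest values of the list, with 95% intervals from -0.24 to 0.18 for both. Psmb3 (-0.08, SE 0.14) and Psmb1 (-0.05, SE 0.09) had the largest differences among the constitutive beta subunits, with overlapping arrays.

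Taken over the 20S core, 11 of 13 alpha and constitutive beta genes lay below zero, with a median difference of -0.05. The share of all tested genes below zero was 49.3%, and of those with a mean of at least 10 it was 54.8%. This lean was small, and over the 13 genes together it depended on 1 array. Pax6 mutant replicate 2 was the lowest of the 4 arrays for 6 of the 13 genes and the highest for 0. Pax6 mutant replicate 1 was also the lowest for 6, but the highest for 4. Over all tested genes, Pax6 mutant replicate 2 was lowest for 21.3% and highest for 32.8%, and replicate 1 for 31.9% and 21.5%. Without Pax6 mutant replicate 2, 6 of 13 lay below zero (46.2%, against 55.4% of all tested genes), with a median of 0.005. Without Pax6 mutant replicate 1 or without WT replicate 2 it was 13 of 13, against 43.4% and 42.5% of all tested genes. Without WT replicate 1 it was 11 of 13 (84.6%, against 55.3%). The 2 kinds of subunit differed without Pax6 mutant replicate 2. The alpha genes then lay below zero for 4 of 7, with a median of -0.10. With all arrays it was 6 of 7, with a median of -0.08. The constitutive beta genes lay below zero for 2 of 6 without that array, with a median of 0.01. With all arrays it was 5 of 6, with a median of -0.03.

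The upstream sequence of Psma5 is shown because Psma5 was among the 4 of 13 core genes, all lower, whose genotypes did not overlap (30.8%, against 12.1% lower over all tested genes and 14.3% of the bright ones). It comes from RefSeq (GRCr8, chr2:198584255-198584504, plus strand) and runs up to the base before the transcription start. Capitals mark the CCAAT box, the site of the NF-Y factor, searched as CCAAT or ATTGG.

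Psma5: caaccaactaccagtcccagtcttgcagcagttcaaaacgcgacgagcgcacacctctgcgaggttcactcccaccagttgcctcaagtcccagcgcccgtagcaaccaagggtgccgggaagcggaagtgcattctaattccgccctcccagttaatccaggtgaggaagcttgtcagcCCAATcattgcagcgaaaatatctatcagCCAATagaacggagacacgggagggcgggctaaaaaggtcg

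This window holds 2 CCAAT boxes. RefSeq promoters were at hand for 106 of the 122 genes, matched by gene ID. In the 250 bases before the start, a CCAAT box was found for 5 of 6 alpha and 4 of 6 constitutive beta genes, for 19 of 40 proteasome genes (47.5%) and for 34.3% of 27457 genes in all. The NFE2L element was also searched, as TGACNNNGC or GCNNNGTCA. It was found for 6 of 40 proteasome genes (15%), 7 of 63 chaperone genes (11.1%) and 10.2% of all genes. A match in these letters is a description and does not show a site in use.

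Immune cells and cells exposed to interferon replace the proteolytic beta subunits by the inducible Psmb8, Psmb9 and Psmb10. In the telencephalon Psmb8 was at the lowest value of the table, 2.07, on all 4 arrays, and Psmb9 reached at most 2.21. Neither was tested. Psmb10 was measured, at 8.54 and 8.33 in the Pax6 mutant and 8.52 and 8.74 in WT (-0.20, SE 0.14), with overlap.

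The 6 ATPases of the 19S base, Psmc1 to Psmc6, unfold the substrate. Their differences ran from -0.05 (Psmc5, SE 0.13) to 0.02 (Psmc4, SE 0.08), and the arrays of the genotypes overlapped for all 6. Psmc6 read 12.45 and 12.10 in the Pax6 mutant and 12.50 and 12.15 in WT. Its replicate arrays lay further apart than the genotypes, in the same direction in both.

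Among the 14 genes of the other 19S subunits and the base assembly chaperones, 7 lay above and 7 below zero. Psmd3, a lid subunit, read 10.90 and 10.99 in the Pax6 mutant and 10.74 and 10.89 in WT, a difference of 0.13 (SE 0.10) with no overlap. Psmd6, also of the lid, read 12.47 and 12.53 in the Pax6 mutant and 12.58 and 12.63 in WT, a difference of -0.11 (SE 0.07) with no overlap. For Psmd7, the partner of the deubiquitinase Psmd14, the brighter probe set differed by -0.03 (SE 0.07), the other by 0.07 (SE 0.07), and the mean over its tested probe sets by 0.019. Psmd14, which removes ubiquitin from the substrate, differed by -0.05 (SE 0.15). A less bright Psmd14 probe set differed by -0.27 (SE 0.30), with an interval of -1.20 to 0.65, so the narrow intervals hold for the brightest probe sets. The ubiquitin receptor Psmd4 differed by -0.06 (SE 0.15). Psmd5, Psmd9 and Psmd10, which help to assemble the base, ran from -0.004 to 0.07.

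The activators Psme1 and Psme2 form a cap that opens the core without ATP. Psme1 read 11.66 and 11.42 in the Pax6 mutant and 11.36 and 11.44 in WT, a difference of 0.14 (SE 0.12) and the highest among proteasome genes. Psme2 read 10.69 and 10.55 in the Pax6 mutant and 10.57 and 10.49 in WT (0.09, SE 0.09), and for both the genotypes overlapped. The nuclear activator Psme4 (-0.05, SE 0.15) and the inhibitor Psmf1 (-0.01, SE 0.09) lay near zero. Of the core assembly chaperones Psmg1 to Psmg4, Psmg1 differed most (-0.08, SE 0.15). Psmg3 had no overlap, at 9.80 and 9.85 in the Pax6 mutant and 9.74 and 9.78 in WT (0.06, SE 0.07).

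Over the proteasome list, 28 of 42 tested genes lay below zero (66.7%) and 14 above it (33.3%), with a median difference of -0.03. Over all tested genes the shares were 49.3% below and 49.9% above zero, with a median of 0. The genotypes did not overlap for 6 lower genes (Psma4, Psma5, Psma7, Psmb7, Psmd6 and Psmd7) and 2 higher ones (Psmd3 and Psmg3), or 14.3% and 4.76%. Over all tested genes these shares were 12.1% lower and 12.2% higher, and among those with a mean of at least 10 they were 14.3% and 9.33%. The lower share is that of the bright genes. Without Pax6 mutant replicate 2, 18 of 42 genes lay below zero (42.9%, against 55.4% of all tested genes). The median was then 0.004, against -0.023 over all tested genes.

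**Figure D2:**
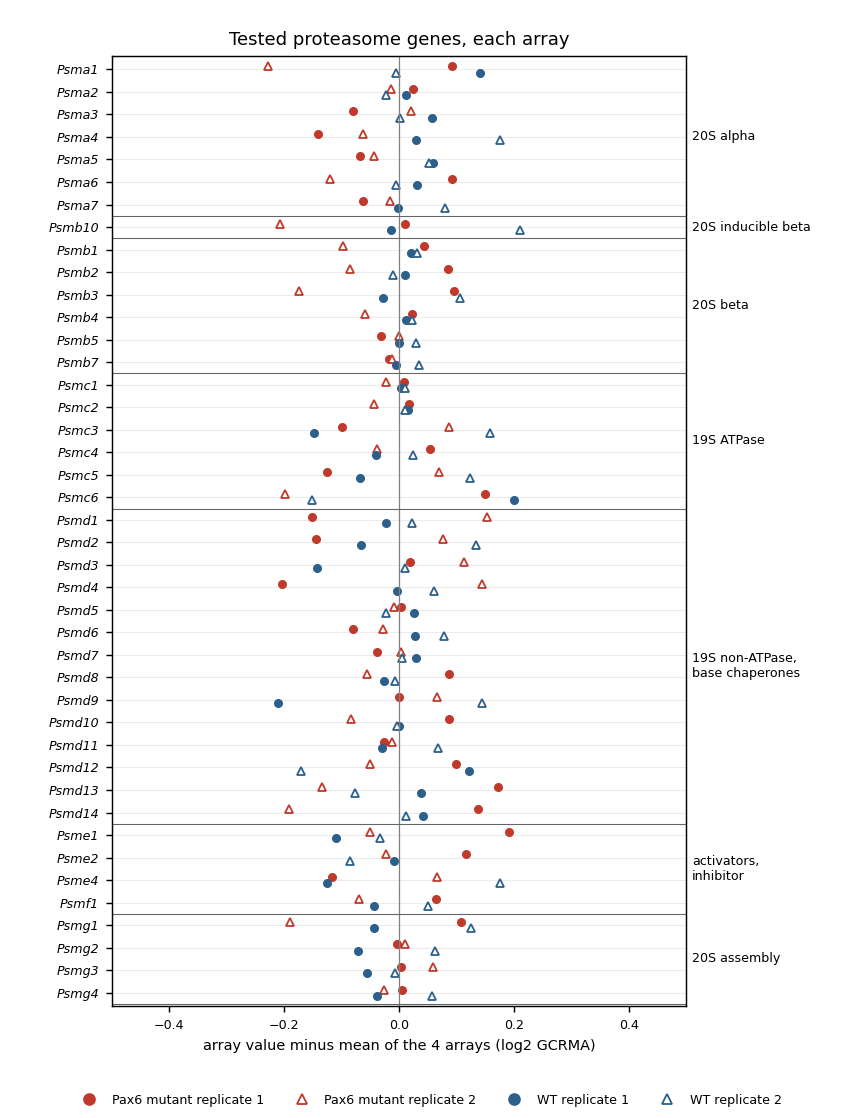
Each row is 1 of the 42 tested proteasome genes; points give the array's value minus the gene's mean over the 4 arrays (log2 GCRMA), with Pax6 mutant arrays in red and WT arrays in blue, replicate 1 filled and replicate 2 open. In the 20S rows Pax6 mutant replicate 2 lies to the left for many genes, and all points lie within 0.5 of their gene's mean.

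The CCT/TRiC chaperonin folds actin and tubulin in a ring of 8 different subunits, all of which were tested. Cct8 read 13.60 and 13.58 in the Pax6 mutant and 13.82 and 13.72 in WT, a difference of -0.18 (SE 0.08, limma adjusted p = 1, 95% interval -0.42 to 0.06) with no overlap. A second, less bright Cct8 probe set differed by -0.13 (SE 0.11), also with no overlap, by a margin smaller than 0.01. Cct2 read 14.24 and 14.42 in the Pax6 mutant and 14.41 and 14.47 in WT (-0.11, SE 0.10), with overlap. The other 6 subunits lay between -0.06 (Cct6a) and 0.03 (Tcp1). Tcp1 had no overlap in the other direction, higher in the Pax6 mutant by a margin smaller than 0.01. At the brightest probe set the 95% interval lay within 0.5 of zero for 8 of 8 subunits. A less bright Cct6a probe set read 9.26 and 9.73 in the Pax6 mutant and 10.22 and 9.72 in WT, a difference of -0.47 (SE 0.28, 95% interval -1.32 to 0.37) with overlap.

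Mitochondria hold a chaperonin of their own, built from Hspd1 (Hsp60) and Hspe1 (Hsp10). Hspd1 read 14.45 and 14.59 in the Pax6 mutant and 14.49 and 14.53 in WT, a difference of 0.01 (SE 0.09). Hspe1 read 14.61 and 14.70 in the Pax6 mutant and 14.69 and 14.78 in WT, a difference of -0.08 (SE 0.08). Both pairs overlapped between the genotypes. The genes stand head to head on chromosome 9, with 289 bases between their starts, so that 211 bases serve as upstream sequence of both.

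The window of Hspe1, whose first 211 bases also lie in that of Hspd1, is shown with that of Hsph1 because heat shock factors are known to act through the heat shock element, and these windows hold it in clusters. Both are RefSeq sequence (GRCr8, plus strand) up to the base before the start, chr9:64084077-64084326 for Hspe1 and chr12:10427118-10427367 for Hsph1. Capitals mark the element, searched as GAANNTTC or TTCNNGAA on both strands, where overlapping matches merge.

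Hspe1: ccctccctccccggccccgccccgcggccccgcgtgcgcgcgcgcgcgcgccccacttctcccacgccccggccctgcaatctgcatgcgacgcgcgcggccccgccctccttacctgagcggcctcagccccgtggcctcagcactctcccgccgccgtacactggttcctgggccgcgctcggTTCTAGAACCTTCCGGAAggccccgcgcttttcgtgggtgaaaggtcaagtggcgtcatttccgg

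Hsph1: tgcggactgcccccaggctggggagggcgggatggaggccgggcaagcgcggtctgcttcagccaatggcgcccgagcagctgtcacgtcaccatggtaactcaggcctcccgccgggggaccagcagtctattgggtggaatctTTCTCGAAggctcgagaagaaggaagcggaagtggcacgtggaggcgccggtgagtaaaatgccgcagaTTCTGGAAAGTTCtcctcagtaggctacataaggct

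Each window holds 3 matches. In the 250 bases before the start, the element was found for 16 of 63 chaperone genes (25.4%), 4 of 40 proteasome genes (10%) and 13.2% of all 27457 genes. Among the chaperone genes that hold it, the Hsp110 protein Hsph1, a nucleotide exchange factor, read 12.09 and 12.31 in the Pax6 mutant and 12.002 and 12.32 in WT (0.04, SE 0.17). Dnajb1, the stress-induced Hsp40, read 11.58 and 11.43 in the Pax6 mutant and 11.57 and 11.495 in WT (-0.03, SE 0.09). Both had overlapping genotypes. Bag3, which cells raise under protein stress, held the element and was at the lowest value on all 4 arrays.

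Hsp70 proteins bind exposed stretches of a chain in an ATP cycle. Hspa1a, a heat-inducible Hsp70, was low in both genotypes, at 4.51 and 4.56 in the Pax6 mutant and 4.39 and 4.85 in WT (-0.08, SE 0.19). Hspa5, the Hsp70 of the endoplasmic reticulum, read 14.11 and 14.07 in the Pax6 mutant and 14.11 and 14.19 in WT (-0.06, SE 0.07), with no overlap by a margin smaller than 0.01. The mitochondrial Hspa9 differed by 0.02 (SE 0.16).

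The widest differences in this family went in opposite directions. Hspa12a, a distant relative of Hsp70, read 8.05 and 8.02 in the Pax6 mutant and 7.35 and 7.83 in WT. This was the highest difference among all members, 0.45 (SE 0.20, limma adjusted p = 1, 95% interval -0.17 to 1.06), and it rested in part on the lower WT array: without WT replicate 1 it was 0.20, and without WT replicate 2 it was 0.69. Hspa4, an Hsp110 protein, read 10.45 and 11.06 in the Pax6 mutant and 10.98 and 11.20 in WT (-0.34, SE 0.26), with overlap. Hspa1l and Hspa12b were dim.

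Small heat shock proteins hold unfolded proteins without ATP and are best known from muscle and lens. In the telencephalon 4 of 7 were tested, and their values were low or spread widely. Hspb1 (Hsp27) read 7.31 and 6.94 in the Pax6 mutant and 6.56 and 7.09 in WT (0.30, SE 0.26). Hspb7 read 4.77 and 3.41 in the Pax6 mutant and 4.50 and 3.83 in WT, and its 95% interval of -1.89 to 1.74 was the widest of the members. Hspb6 differed by 0.18 (SE 0.49) and Hspb9 by 0.20 (SE 0.27). Hspb2, Hspb3 and Hspb8 were dim, with a highest value of 2.73.

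The next group holds Hspbp1 and the Bag proteins, several of which, though not all, release the nucleotide from Hsp70. Bag2 read 9.54 and 9.60 in the Pax6 mutant and 9.33 and 9.52 in WT (0.14, SE 0.10), and Bag6 read 10.67 and 10.78 against 10.58 and 10.63 in WT (0.11, SE 0.08). Both had no overlap. A less bright Bag6 probe set differed by -0.03 (SE 0.30), too imprecise to be told from the brighter one. Bag1, on the other side, read 10.21 and 10.53 in the Pax6 mutant and 10.49 and 10.65 in WT (-0.20, SE 0.16). In all, 5 of 6 tested genes of this group lay above zero (83.3%, against 49.9% of all tested genes). Without WT replicate 1 it was 3 of 6 (50%, against 44.7%).

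J-domain proteins bring substrates to Hsp70 and start its ATP hydrolysis. The 36 tested ones of 39 lay below zero in 24 cases (66.7%, against 49.3% of all tested genes), with a median of -0.06. Without WT replicate 2 this was 19 of 36 (52.8%, against 42.5% of all tested genes), with a median of -0.02, and without Pax6 mutant replicate 1 it was 22 of 36 (61.1%, against 43.4%), with a median of -0.016. Without Pax6 mutant replicate 2 it was 27 of 36 (75%, against 55.4%), with a median of -0.10. Without WT replicate 1 it was 24 of 36 (66.7%, against 55.3%), with a median of -0.06. Among class A, Dnaja1 (0.01, SE 0.07) and Dnaja2 (-0.05, SE 0.09), the main cytosolic partners, lay near zero. Dnaja4 read 7.37 and 7.63 in the Pax6 mutant and 7.10 and 7.37 in WT (0.27, SE 0.16), with no overlap by a margin smaller than 0.01. The mitochondrial Dnaja3 read 9.41 and 9.59 in the Pax6 mutant and 9.48 and 10.17 in WT. Its difference of -0.32 (SE 0.28) came with a wide gap between the WT arrays, and without WT replicate 2 it was 0.015.

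Among class B, the genotypes did not overlap for 0 of 10 tested genes, against 24.3% of all tested genes in either direction. Dnajb2, which is known from neurons, read 7.46 and 8.11 in the Pax6 mutant and 7.83 and 8.39 in WT (-0.33, SE 0.34). Dnajb4 read 8.74 and 9.10 in the Pax6 mutant and 9.06 and 9.29 in WT (-0.25, SE 0.18). In both genes replicate 2 was higher than replicate 1 in each genotype. Dnajb6, which keeps proteins from aggregating, read 11.29 and 11.36 in the Pax6 mutant and 11.93 and 11.14 in WT (-0.21, SE 0.32).

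Class C holds J-domain proteins with special tasks, and 16 of its 22 tested genes lay below zero (72.7%, against 49.3% of all tested genes), with a median of -0.08. Pax6 mutant replicate 1 was the lowest of the 4 arrays for 12 of the 22 (54.5%, against 31.9% of all tested genes). Without that array, 14 of 22 lay below zero (63.6%, against 43.4% of all tested genes). The median was then -0.016, against 0.022 over all tested genes. Without Pax6 mutant replicate 2 it was 17 of 22 (77.3%, against 55.4%), with a median of -0.14, against -0.023. Dnajc17, a nuclear protein linked to splicing, was the single member with an unadjusted p under 0.05. It read 7.82 and 7.88 in the Pax6 mutant and 8.24 and 8.17 in WT, a difference of -0.35 (SE 0.08, 95% interval -0.58 to -0.12). Its limma adjusted p was 1 (unadjusted p = 0.0159), so it did not pass. Both Pax6 mutant arrays lay below both WT arrays. With 1 array left out its difference ran from -0.39 to -0.32, and its adjusted p over the alternatives ran from 0.727 to 1.

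Dnajc8, another J-domain protein of the spliceosome, read 11.36 and 11.37 in the Pax6 mutant and 11.58 and 11.47 in WT (-0.16, SE 0.08), with no overlap. Dnajc12 read 9.63 and 9.44 in the Pax6 mutant and 9.66 and 9.82 in WT (-0.21, SE 0.12). Dnajc12 assists the enzymes that hydroxylate aromatic amino acids. Dnajc4 read 5.29 and 5.76 in the Pax6 mutant and 5.91 and 5.82 in WT (-0.34, SE 0.20), and Dnajc19, of the mitochondrial import motor, read 11.90 and 12.02 against 12.07 and 12.05 in WT (-0.10, SE 0.08). These 3 genes also had no overlap.

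**Figure D3:**
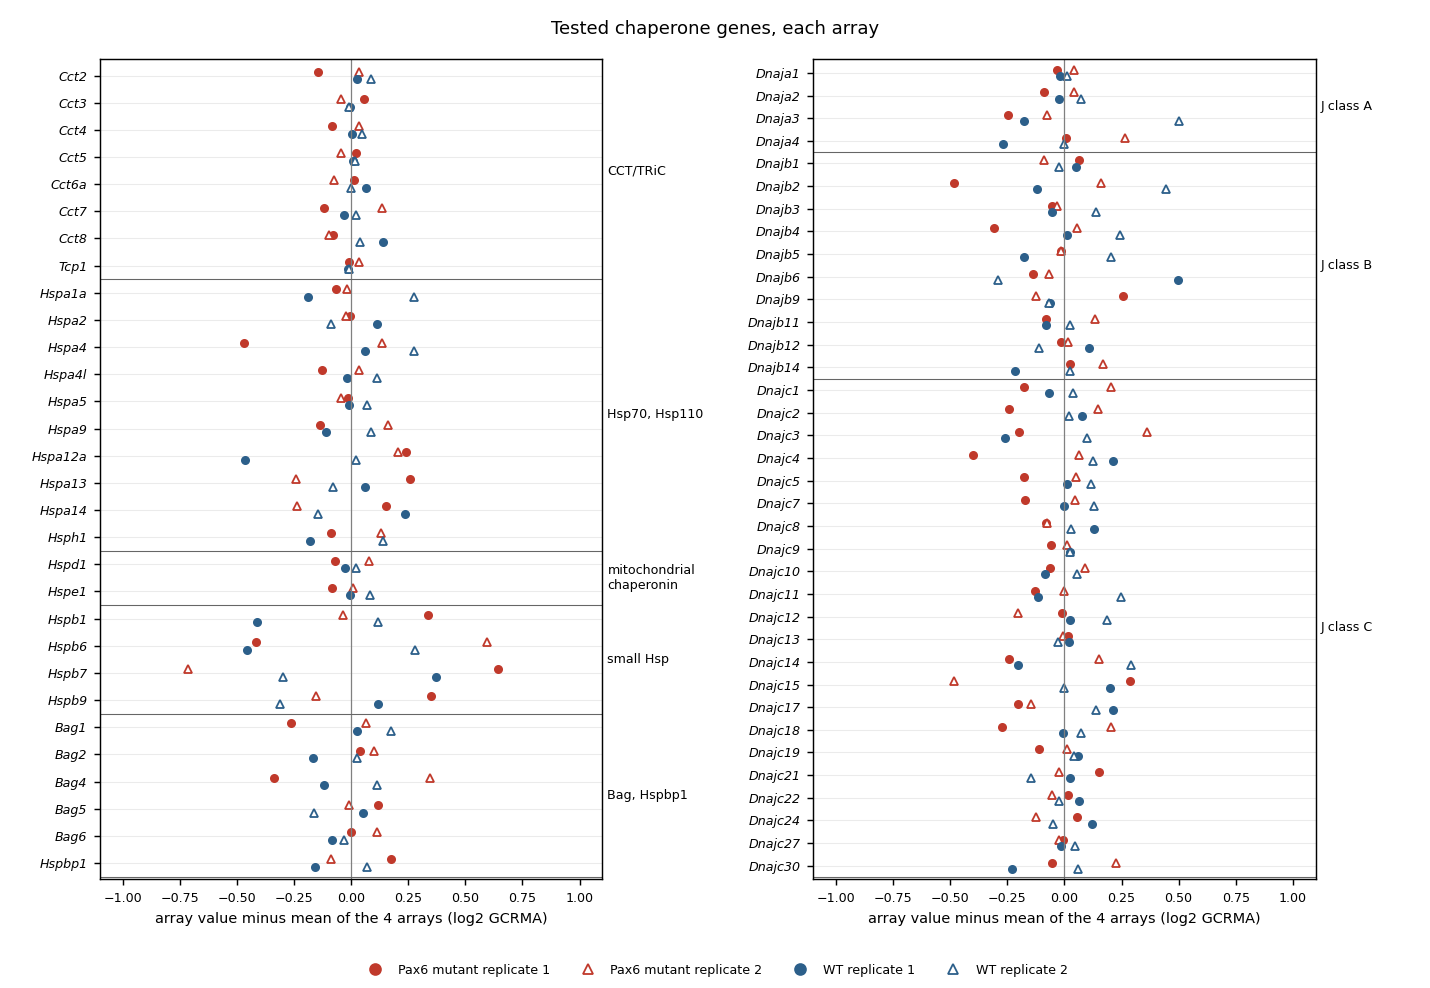
Each row is 1 of the 66 tested chaperone genes, drawn as for the proteasome on a wider scale: points give the array's value minus the gene's mean over the 4 arrays (log2 GCRMA), Pax6 mutant in red, WT in blue, replicate 1 filled, replicate 2 open. Both red points of Dnajc17 lie left of both blue ones, the points of CCT/TRiC stay close to zero, and those of the small heat shock proteins spread most.

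Dnajc3, Dnajb9, Dnajb11 and Dnajc10 are J-domain proteins of the endoplasmic reticulum, which work with Hspa5. Dnajc3 differed by 0.16 (SE 0.27), Dnajb9 by 0.13 (SE 0.16), Dnajb11 by 0.06 (SE 0.12) and Dnajc10 by 0.03 (SE 0.11). For each of these, 1 of the Pax6 mutant arrays lay below the WT mean. The synaptic vesicle protein Dnajc5 differed by -0.13 (SE 0.12), and the histone chaperone Dnajc9 by -0.05 (SE 0.07), the sixth gene of its class with no overlap. Dnajb7, Dnajb13 and Dnajc6 were dim.

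Over the chaperone list, 38 of 66 tested genes lay below and 28 above zero, with a median difference of -0.03. The genotypes did not overlap for 8 lower genes (12.1%) and 5 higher ones (7.58%), against 12.1% lower and 12.2% higher over all tested genes, so the lower share was that of the background. Of the 8 lower genes, 6 were J-domain proteins of class C, which is 27.3% of that class, against 12.1% of all tested genes. With 1 array left out, between 34 and 44 of the 66 lay below zero. The lowest count (51.5%, against 42.5% of all tested genes) came without WT replicate 2. The highest (66.7%, against 55.4%) came without Pax6 mutant replicate 2.

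The mean gap between replicate arrays exceeded the size of the genotype difference for most members, as for most tested genes. This held for 33 of 42 proteasome genes (78.6%) and 53 of 66 chaperone genes (80.3%). Over all tested genes it held for 72%, and for 75.9% of those with a mean of at least 10. A gap between single arrays varies more than a difference between means of 2 arrays, so a majority is not particular to the members. Among chaperone genes, replicate 2 was higher than replicate 1 in both genotypes for 34 of 66 (51.5%) and lower in both for 16 (24.2%). For proteasome genes the counts were 16 (38.1%) and 12 (28.6%), and over all tested genes the shares were 43.4% and 22.8%. The median level of the proteasome genes was 12.30 and 12.17 in the Pax6 mutant arrays and 12.30 and 12.33 in the WT arrays. That of the chaperone genes was 9.66 and 9.66 in the Pax6 mutant arrays and 9.71 and 9.77 in the WT arrays.

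**Figure D4:**
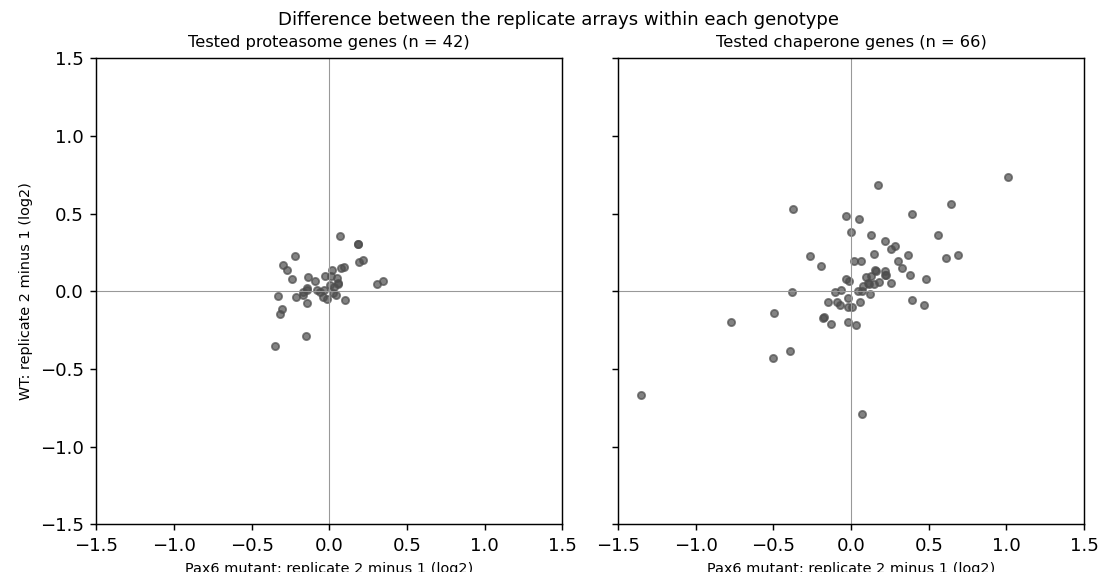
Each point is 1 tested gene; the horizontal axis gives replicate 2 minus replicate 1 in the Pax6 mutant and the vertical axis the same in WT (both log2). Chaperone genes spread further than proteasome genes, and 34 of the 66 lie at the upper right, where replicate 2 is higher in both genotypes.

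Genes that work beside these systems also held 0 genes past the adjusted threshold in limma. Of 16 tested Hsp90 genes and co-chaperones, 10 lay above and 6 below zero, with a median of 0.01 and 0 at an unadjusted p under 0.05. The largest were Cdc37l1 (-0.27, SE 0.14) and Chordc1 (0.16, SE 0.26, or -0.14 without Pax6 mutant replicate 1). Prefoldin, which hands new chains to CCT/TRiC, lay below zero for 4 of 5 genes, led by Pfdn6 (-0.19, SE 0.09) and Pfdn2 (-0.12, SE 0.10), with a median of -0.12. Genes of folding in the endoplasmic reticulum and of the unfolded protein response lay above zero for 12 of 20, with a median of 0.05. Its largest were the Hsp70 relative Hyou1 (0.28, SE 0.17) and Sdf2l1 (0.18, SE 0.15).

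Among the transcription factors of heat shock and proteasome genes, 5 of 7 lay above zero. Nfe2l2, which drives the response to oxidants, read 9.41 and 9.18 in the Pax6 mutant and 9.29 and 8.94 in WT (0.18, SE 0.18), and Nfe2l1, known to drive proteasome genes when proteasome activity falls short, differed by 0.12 (SE 0.13). Of the ubiquitin genes and proteasome partners, 8 of 15 lay above zero, with a median of 0.04. Ubqln1, which shuttles ubiquitinated proteins to the proteasome, read 12.23 and 12.31 in the Pax6 mutant and 11.996 and 12.02 in WT. Its difference of 0.26 (SE 0.07, limma adjusted p = 1, unadjusted p = 0.0357) had no overlap, and a mean over its probe sets gave 0.23. Uba6, a ubiquitin-activating enzyme, read 10.58 and 10.78 in the Pax6 mutant and 11.01 and 10.97 in WT (-0.31, SE 0.10, or -0.21 as a mean over its probe sets).

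Markers of red blood cells read higher in the Pax6 mutant arrays, with 10 of 11 tested genes above zero and a median difference of 0.22. Their summed linear level was 125708 and 123266 in the Pax6 mutant and 109376 and 109777 in WT, and none of the 12 on the array was at the lowest value on all arrays. Endothelial markers were above zero for 11 of 12, with a summed level of 4464 and 5119 in the Pax6 mutant and 4051 and 4062 in WT. Mesenchyme markers lay below zero for 5 of 7, with a summed level of 5976 and 7327 in the Pax6 mutant and 7542 and 7739 in WT, and surface ectoderm markers for 3 of 5, with 354 and 383 in the Pax6 mutant and 460 and 382 in WT. The median of the ectoderm list was -0.55, with Epcam at -0.92 (SE 0.30), Krt18 at -0.73 (SE 0.10) and Cdh1 at 0.59 (SE 0.14), all without overlap. The telencephalic markers lay above zero for 6 of 9, with 49989 and 49597 in the Pax6 mutant and 45168 and 45078 in WT. The part of these cells in the differences given above was not tested.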

How the data were processed

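Telencephalon RNA of 2 Pax6 mutant and 2 WT samples was measured on 1 Affymetrix rat array each. The authors deposited log2 expression values. The submitters' processing notes name GCRMA, a background correction and quantile normalization for such arrays, and its version is not given in the sources used here. The values span 2.07 to 16.13, a range that fits a log2 scale. On each array 5336 to 5465 probe sets shared the lowest value and have no order there. The number of arrays limits the precision.

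Probe sets were named from the platform annotation, and all 122 gene IDs matched the RefSeq table. After 57 controls and 12417 dim probe sets were left out, limma 3.58.1 (R 4.3.3) fitted genotype on 18625 probe sets with lmFit and eBayes, with Benjamini-Hochberg adjustment over all of them. A gene stands at its probe set with the highest mean. Of 23 member genes with several tested probe sets, 9 had probe sets on both sides of zero. The fit was tested on simulated data with the same SD for all probe sets and independent arrays. That checks the code and does not measure the power in these data.

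The genes named were, in each functional group, the 2 with the largest difference, up to 6 per direction and list without overlap, members with an unadjusted p under 0.01, and 2 per related list; further members are named to complete their group. The members and lists were chosen with earlier results of these data known. The motifs and promoters were chosen after the values were seen. Alternatives changed the filter, pseudocount, normalization, prior, replicate block, probe set and arrays.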

Additional observations from a re-analysis of the deposited data

How the results depend on the processing

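All members stayed without a call at an adjusted p of 0.05 under every alternative run. Over all probe sets the number of calls was 0 in limma as reported (with 680 at an unadjusted p under 0.05), 1 with the stricter filter and 2 with quantile normalization, with median centring or without probe sets of zero variance, the last a choice made after seeing the data; 0 of these were members. Without a dim filter, 1 of 44 proteasome and 3 of 75 chaperone genes had an unadjusted p under 0.05 in limma, against 989 of 31042 probe sets. For the 66 chaperones above the dim level this count was 0 with median centring, 2 with an intensity trend and 3 with the replicate block. Over all 18625 tested probe sets the counts were 649, 651 and 1194 in these settings. Median centring gave 16 lower chaperone genes without overlap (24.2%, against 12.9% of all tested genes so scaled), in place of 8. Higher chaperone genes numbered 7 (10.6%, against 13.6%), in place of 5. For the proteasome it gave 4 lower genes (9.52%, against 12.9%), in place of 6, and 1 higher gene (2.38%, against 13.6%), in place of 2. The cause was not tested.

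With 1 array left out, the lone array is assumed to vary like the others. The median of the proteasome list then ran from -0.043 to 0.0045 and that of the chaperone list from -0.068 to -0.02. Over all tested genes the median ran from -0.023 to 0.024. Proteasome genes below zero ran from 18 (42.9%, without Pax6 mutant replicate 2) to 30 (71.4%, without replicate 1 of either genotype). Over all tested genes these shares were 55.4% without Pax6 mutant replicate 2, 43.4% without Pax6 mutant replicate 1 and 55.3% without WT replicate 1. Genes without overlap, which are more when fewer arrays are compared, ran from 11 to 22 lower and 4 to 15 higher for the proteasome, and from 16 to 30 lower and 12 to 19 higher for chaperones. Over all tested genes they ran from 23.6% to 37.4% lower and from 23.4% to 38.2% higher. The proteasome shares ran from 26.2% to 52.4% lower and 9.52% to 35.7% higher, and those of chaperones from 24.2% to 45.5% and from 18.2% to 28.8%.

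The sign of some differences turned with 1 array left out. Their ranges were -0.14 to 0.46 for Chordc1, -0.67 to 0.015 for Dnaja3, -0.055 to 0.45 for Hspb9, -0.065 to 0.085 for Hspd1, -0.017 to 0.27 for Nfe2l1, -0.30 to 0.024 for Psma1, -0.12 to 0.017 for Psmb1, -0.21 to 0.057 for Psmb3, -0.15 to 0.043 for Psmc5, -0.22 to 0.13 for Psmc6 and -0.23 to 0.068 for Psmg1. With the mean over probe sets, Psmd7 was at 0.019. The replicate block changed no other call; same-numbered arrays deviated together (r = 0.43 over 18625 probe sets), but the labels do not say that a number marks a shared litter or day.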
